A study of Mus musculus with 30 samples.

Results

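Voltage-gated sodium, calcium and hyperpolarization-activated cyclic nucleotide-gated (HCN) channel genes were followed through bulk RNA-seq of the mouse dorsal hippocampus. They were all rows of the expression table whose symbol begins with Scn and a number followed by a or b, with Cacna, Cacnb or Cacng, or with Hcn and a number from 1 to 4. The rule left out 3 genes, Cacng2, Cacng3 and Cacng8, which encode AMPA receptor auxiliary subunits (TARPs), as the retained Cacng4, Cacng5 and Cacng7 also do. It found 41 of the 24883 rows, of which 38 are described. Of these, 27 had a mean of at least 1 FPKM (sequenced fragments scaled to the length of the transcript and to the size of the library) over the 30 libraries. Only these 27 genes, among 13184 rows that passed the same filter, were tested.

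The study asked how point mutations of 1 tyrosine of CREST bear on gene expression after learning. CREST, encoded by Ss18l1, is a subunit of the neuronal BAF chromatin remodelling complex. Adult male C57BL/6J wild-type mice, housed singly, received bilateral infusions into dorsal CA1 at 3 days before training. The infusion was either the in vivo-jetPEI transfection reagent alone (vehicle, VEH) or the reagent carrying a plasmid for HA-tagged mouse CREST, as the Y397F or the Y397D form, driven by a shortened CaMK2 promoter of excitatory neurons. The labels call Y397F phospho-null and Y397D phospho-mimetic, and nothing analysed here measures phosphorylation of this residue. Object location memory (OLM) training lasted 10 min, a length that normally forms long-term memory, or 3 min, which is below threshold, and 1 hemisphere of dorsal hippocampus per mouse was taken 1 hour after training.

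The 5 conditions held 6 mice each. VEH-HC mice received vehicle and were only handled in the home cage. By the paper's protocol, mice that trained were first habituated to the training chamber. VEH-T10 and VEH-T3 mice received vehicle and trained for 10 or 3 min. Y397F-T10 mice received the Y397F form and trained for 10 min, and Y397D-T3 mice received the Y397D form and trained for 3 min. No condition received wild-type CREST or a plasmid without CREST, and the endogenous gene was intact in every mouse. The plasmid reaches part of the cells in the infused area, whereas the library reads the whole hemisphere. Every comparison with VEH-HC thus changed habituation and training together, and those of Y397F-T10 or Y397D-T3 changed the infusate as well.

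Each sodium channel is built on a single pore-forming alpha subunit (Scn1a, Scn2a, Scn3a and Scn8a in the brain) that carries the upstroke of the action potential, joined by small beta subunits that set its gating and surface level. Calcium channels likewise rest on 1 alpha1 subunit, of the L type (Cav1), the P/Q, N and R types that open at presynaptic terminals and dendrites (Cav2), or the low-threshold T type (Cav3). Alpha2delta and beta subunits carry the alpha1 subunits of Cav1 and Cav2 channels to the membrane. HCN channels open on hyperpolarization and carry the h-current, which dampens dendritic summation in hippocampal pyramidal cells.

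Some libraries stood apart before any comparison was made. In 4 libraries, those of VEH-T10 mouse 1, Y397F-T10 mouse 1, VEH-T3 mouse 1 and Y397D-T3 mouse 3, the summed FPKM of the listed astrocyte markers was 325 to 431, against 527 to 1510 in the other 20 trained libraries and 552 to 946 in the VEH-HC libraries. The summed oligodendrocyte markers of these 4 libraries were also lower (1164 to 1476) than in the other 20 (1548 to 3822), while the summed CA1 markers overlapped (194 to 225 against 167 to 257). VEH-HC mouse 4 stood apart in another way. Its library had a length index of -0.49, against -0.28 to 0.32 in the other 29 libraries, so that long transcripts read low in it. The index is the correlation, over tested rows, of log2 transcript length with the library's log2 value minus the row mean. Choroid plexus markers ranged from 10.1 to 12813 in summed FPKM over all libraries. The VEH-HC libraries all lay between 919 and 5615. Of the trained conditions, VEH-T3 had a median of 1957, Y397D-T3 of 124, VEH-T10 of 101 and Y397F-T10 of 55.8. Summed deep cortex markers were 19.2 to 24.1 for VEH-HC, above the other 20 trained libraries (13.5 to 19.0). The 4 libraries overlapped VEH-HC (18.2 to 28.1). The part of these marker differences in the comparisons with VEH-HC was not tested. Sequencing depth cannot be read from FPKM, and the spread between mice carries all of the error reported.

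The level of Ss18l1 itself, which the plasmids would add to where their reads were counted, averaged 12.3 ± 0.745 FPKM (SD, n = 6) in VEH-HC, 12.01 ± 1.18 after 10 min with vehicle and 12.9 ± 1.08 after 3 min. It averaged 12.6 ± 0.920 in Y397F-T10 and 13.5 ± 0.471 in Y397D-T3. It did not differ past the threshold in Y397D-T3 against VEH-T3 (limma, log2 difference 0.07, adjusted p = 0.785) or in Y397F-T10 against VEH-T10 (0.06, adjusted p = 0.999), so the labels could not be checked by it in tissue of the whole hemisphere.

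Auxiliary subunits had the highest levels of the genes described. FPKM is a value per length of transcript, so these levels may be set side by side between genes. Cacnb3, the main calcium channel beta subunit here, averaged 81.1 FPKM over the 30 libraries and Cacng7, a gamma subunit gene known for its action on AMPA receptors, 78.4. Cacnb3 exceeded Cacng7 in 19 of 30 libraries, so this order did not hold in each mouse. Scn3b and Scn2b, which encode the beta3 and beta2 subunits, both averaged 67.0 FPKM and changed places between libraries, Scn3b being higher in 16. Hcn2, an HCN channel gene, averaged 55.4 and Cacnb1 48.3 FPKM.

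The pore-forming subunits of sodium and calcium channels were less abundant than these. Scn8a (Nav1.6), the sodium channel of the axon initial segment and nodes, averaged 30.8 FPKM, or 41.6% of the summed FPKM of the sodium channel alpha genes described, and Scn2a1 (Scn2a, Nav1.2) held 38.6%. Scn1a (Nav1.1), the main form in fast-spiking interneurons, held 12.8% and Scn3a (Nav1.3) 6.36%.

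Among Cav2 genes, Cacna1a (P/Q type) held 48.1%, Cacna1e (R type) 31.7% and Cacna1b (N type) 20.2%. The L-type genes were led by Cacna1c at 62.2%, before Cacna1d at 36.9%, and the T-type genes by Cacna1h at 57.4%. Cacna2d3 (52.5%) and Cacna2d1 (39.7%) made up most of the alpha2delta genes, and Cacnb3 (51.4%) and Cacnb1 (30.7%) most of the beta genes. Cacna1a (26.3 FPKM) and Cacna2d1 (25.5 FPKM) could not be ordered, Cacna1a being higher in 15 of 30 libraries.

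**Figure D1:**
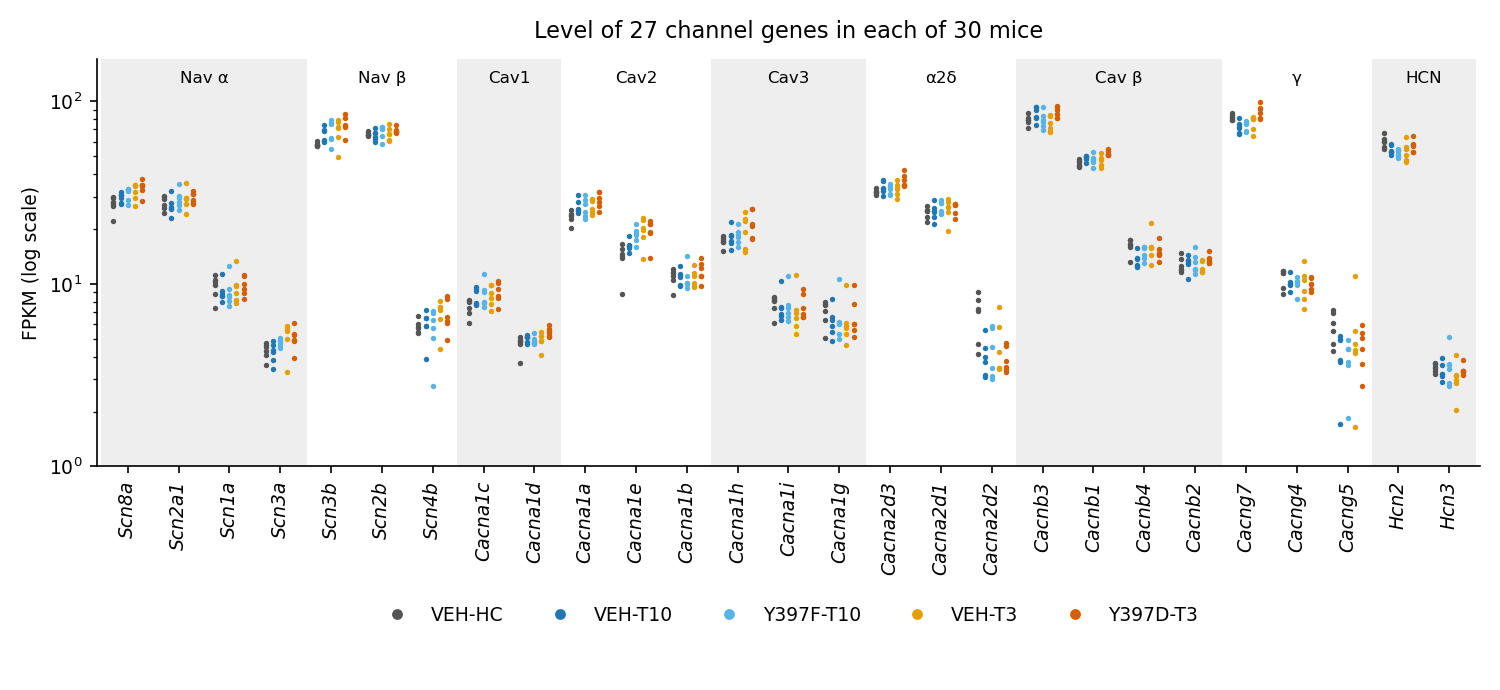
Level in FPKM on a log axis of 27 tested channel genes, 1 point per mouse and 30 mice, coloured by condition. Cacnb3, Cacng7, Scn3b, Scn2b and Hcn2 form the top of the series, with means from 81.1 down to 55.4 FPKM, and Hcn3 the bottom.

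The remaining 11 genes were below the filter, and they include channels known from other tissues. Scn4a and Cacna1s of skeletal muscle, Scn10a and Scn11a of sensory neurons and Cacna1f of the retina all averaged under 0.2 FPKM in every condition. Scn9a, Scn7a, Hcn4, Cacna2d4, Cacng1 and Cacng6 were the others. Hcn4, the cardiac pacemaker form that the thalamus also expresses, averaged 0.374 FPKM in VEH-HC and 0.242 to 0.315 in the trained conditions. Its mice overlapped, at 0.189 to 0.572 in VEH-HC and 0.124 to 0.559 in VEH-T3. With the filter left off, it was not called across the conditions (limma F test, adjusted p = 0.659).

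The genes differed widely in how much they varied between mice. Over the 30 libraries the coefficient of variation was lowest for Scn2b (6.14%) and Cacnb1 (6.25%) and highest for Cacng5 (38.2%) and Cacna2d2 (35.2%). Cacna1g (23.7%) and Scn4b (20.3%) came next, and both are among the genes that moved with the 4 libraries described above.

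The comparison of Y397D-T3 with VEH-HC held most of the calls. Of the 27 channel genes, 7 were higher and 1 was lower in Y397D-T3 mice at an adjusted p under 0.05 in limma. The 7 higher genes were Scn8a, Scn3b, Cacna1a, Cacna1e, Cacna1d, Cacna2d3 and Cacnb1, which encode a sodium channel alpha and a beta subunit, calcium channel alpha1 subunits of the P/Q, R and L types, an alpha2delta and a beta subunit. Cacna2d2 was the lower one. Over all 13184 tested rows, 3.91% were called higher and 3.16% lower in this comparison, 7.07% in either direction. The median log2 difference was 0.10 over the 27 genes and -0.03 over all rows, and 19 of 27 channel genes had a positive difference, against 40.4% of all rows. Over all rows the split was 515 higher and 417 lower, and 692 and 248 after each library was centred on its median, which moved none of the 8 calls among channel genes.

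Cacnb1 encodes the beta1 subunit that chaperones calcium channels to the membrane (GRCm38 chr11:98001508-98023034, minus strand). Its level was lowest 43.4, median 45.7 and highest 48.0 FPKM in VEH-HC and 50.4, 51.2 and 54.4 in Y397D-T3. Every Y397D-T3 mouse lay above every VEH-HC mouse. The log2 difference was 0.18 ± 0.04 (SE), adjusted p = 0.00990, and it passed the threshold whichever of the 12 mice was left out (adjusted p 0.0112 to 0.0268). The vehicle-treated trained mice averaged 48.8 ± 1.67 FPKM in VEH-T10 and 47.4 ± 3.09 in VEH-T3.

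Scn8a (chr15:100869858-101045938, plus strand) was at 22.2, 27.8 and 29.99 FPKM (lowest, median, highest) in VEH-HC and at 28.5, 34.5 and 37.4 in Y397D-T3. The groups overlapped, yet all 6 Y397D-T3 mice were above the VEH-HC median. The difference was 0.30 ± 0.07 on the log2 scale (adjusted p = 0.0152), and it also passed with any 1 mouse left out (0.00577 to 0.0444). Mean levels were 29.6 and 31.2 FPKM in VEH-T10 and Y397F-T10 and 32.0 in VEH-T3, all between the VEH-HC mean of 27.3 and the Y397D-T3 mean of 33.7. The remaining sodium channel alpha genes were positive but not called, from 0.02 for Scn1a to 0.18 for Scn3a.

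Scn3b (chr9:40269217-40291618, plus strand) had a very narrow range in VEH-HC, at 57.0, 57.5 and 60.4 FPKM, and a wide one in Y397D-T3, at 61.4, 73.8 and 84.9. All Y397D-T3 mice were above all VEH-HC mice (log2 difference 0.35 ± 0.10, adjusted p = 0.0262). The call was lost without VEH-HC mouse 5 (0.0513) or without Y397D-T3 mouse 1, 5 or 6 (0.0516, 0.0534 and 0.0621). The lowest Scn3b value of VEH-T3 (49.3 FPKM) and that of Y397D-T3 belonged to libraries among the 4 set apart. Without those 4, a choice made after the values were seen, the difference in Y397D-T3 was 0.40 (limma, adjusted p = 0.000512). A larger difference had to follow from taking out the lowest Y397D-T3 value, so it does not strengthen the call.

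Of the Cav2 genes, Cacna1e (chr1:154390731-154884501, minus strand) showed the largest positive difference of the 27 genes. Its lowest, median and highest levels were 8.81, 14.4 and 16.4 FPKM in VEH-HC and 13.9, 20.2 and 22.2 in Y397D-T3. The groups overlapped through 1 low Y397D-T3 mouse, and 5 of 6 Y397D-T3 mice were above the VEH-HC median. The difference was 0.47 ± 0.12 (adjusted p = 0.0194), and the ratio of means 1.40. Without Y397D-T3 mouse 2 or 5 the adjusted p was 0.0525 or 0.0504.

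Cacna1a (chr8:84388440-84640246, plus strand), the channel that supplies most fast transmitter release in the brain, was at 20.2, 23.7 and 25.2 FPKM in VEH-HC and at 24.6, 28.8 and 31.8 in Y397D-T3. All 6 Y397D-T3 mice were above the VEH-HC median, with a slight overlap of the ranges. The difference was 0.29 ± 0.07 (adjusted p = 0.0175), with 0.0503 and 0.0516 without Y397D-T3 mouse 2 and mouse 5. Cacna1b, the N-type gene, was not called (10.9 ± 1.18 against 11.8 ± 1.44 FPKM, log2 difference 0.10, adjusted p = 0.489).

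Cacna1d (chr14:30039939-30491455, minus strand) encodes the L-type channel Cav1.3, which opens at more negative voltages than Cav1.2. It was at 3.70, 4.85 and 5.09 FPKM in VEH-HC and at 5.09, 5.48 and 5.94 in Y397D-T3, and the ranges touched. The call (0.19 ± 0.06, adjusted p = 0.0409) was the least stable of the 8 and passed in 4 of 12 leave-outs. It was lost without VEH-HC mouse 1, 2, 3 or 4 (0.0589, 0.0536, 0.0535 and 0.104) and without Y397D-T3 mouse 2, 4, 5 or 6 (0.0769, 0.0756, 0.103 and 0.0663). Cacna1c, the more abundant L-type gene, had a difference of 0.25 that did not pass (adjusted p = 0.102).

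Both called alpha2delta genes moved, in opposite directions. Cacna2d3 (chr14:28904943-29721864, minus strand) was at 30.8, 31.8 and 33.3 FPKM in VEH-HC and at 34.5, 35.9 and 42.0 in Y397D-T3, without overlap (0.21 ± 0.06, adjusted p = 0.0227). It passed in 11 of 12 leave-outs and gave 0.0581 without Y397D-T3 mouse 2. Cacna2d3 was the most abundant alpha2delta gene, whereas Cacna2d2 held 10.5 ± 2.65% (SD, n = 6) of alpha2delta FPKM in VEH-HC and 5.80 ± 0.978% in Y397D-T3.

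Cacna2d2 (chr9:107399612-107529343, plus strand), an alpha2delta subunit prominent in cerebellar Purkinje cells and interneurons, was at 4.12, 7.19 and 9.05 FPKM in VEH-HC and at 3.28, 3.66 and 4.74 in Y397D-T3. No Y397D-T3 mouse reached the VEH-HC median, though the ranges overlapped. Its difference of -0.63 ± 0.18 was the largest in size of the 27 (adjusted p = 0.0321), and it passed in 5 of 12 leave-outs. It was lost without VEH-HC mouse 2, 3, 5 or 6 (0.0818, 0.0698, 0.0657 and 0.0582) or without Y397D-T3 mouse 2, 4 or 5 (0.0677, 0.0511 and 0.0752). Similar differences that did not pass were seen in VEH-T10 (-0.60, adjusted p = 0.0933), Y397F-T10 (-0.54, 0.122) and VEH-T3 (-0.46, 0.123), all set against the same 6 VEH-HC mice.

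A marker of glutamatergic neurons of thalamus and deep midline regions moved in the same direction as Cacna2d2. Slc17a6, the vesicular glutamate transporter VGLUT2, averaged 4.39 ± 0.629 FPKM in VEH-HC (3.598 to 5.06) and 1.49 to 2.49 in the trained conditions, with adjusted p-values of 0.0199 in Y397D-T3, 0.0310 in VEH-T10 and 0.0313 in Y397F-T10. In VEH-T3 it did not pass (adjusted p = 0.0690). Of the other listed thalamus markers, the defining gene Prkcd did not follow it, at 11.2 to 21.9 FPKM in VEH-HC and 13.2 to 38.1 in the 20 trained libraries that were not set apart, and the summed thalamus list overlapped (28.2 to 40.2 against 26.0 to 50.4). VEH-T3 mouse 5, with the highest Prkcd level (38.1 FPKM), also had the highest Cacna2d2 level of the trained mice (7.46 FPKM). Its Slc17a6 level was 1.77 FPKM, within the 0.651 to 2.79 of the 20 libraries. The 4 libraries set apart went the other way. Their Prkcd was 3.55 to 5.46 FPKM, yet their Cacna2d2 was 4.74 to 5.86, above the median of 3.50 in the other 20. Among the listed interneuron markers, Gad1 averaged 99.8 FPKM in VEH-HC and 80.9 to 85.3 in the trained conditions. Slc32a1 averaged 41.6 against 30.9 to 34.4, Gad2 26.9 against 22.7 to 24.2, and Pvalb 32.1 against 27.8 to 30.9. The summed interneuron list overlapped, at 549 to 779 in VEH-HC and 495 to 930 in the trained mice. Its mean was highest in Y397D-T3 (733, against 705 in VEH-HC). The remaining listed markers, Sst and Vip, were thus together higher in Y397D-T3 than in VEH-HC, opposite to the others. The part of neighbouring tissue or of interneurons in the Cacna2d2 difference was not tested. In a bulk library, fewer cells of a type and less RNA per cell cannot be told apart.

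**Figure D2:**
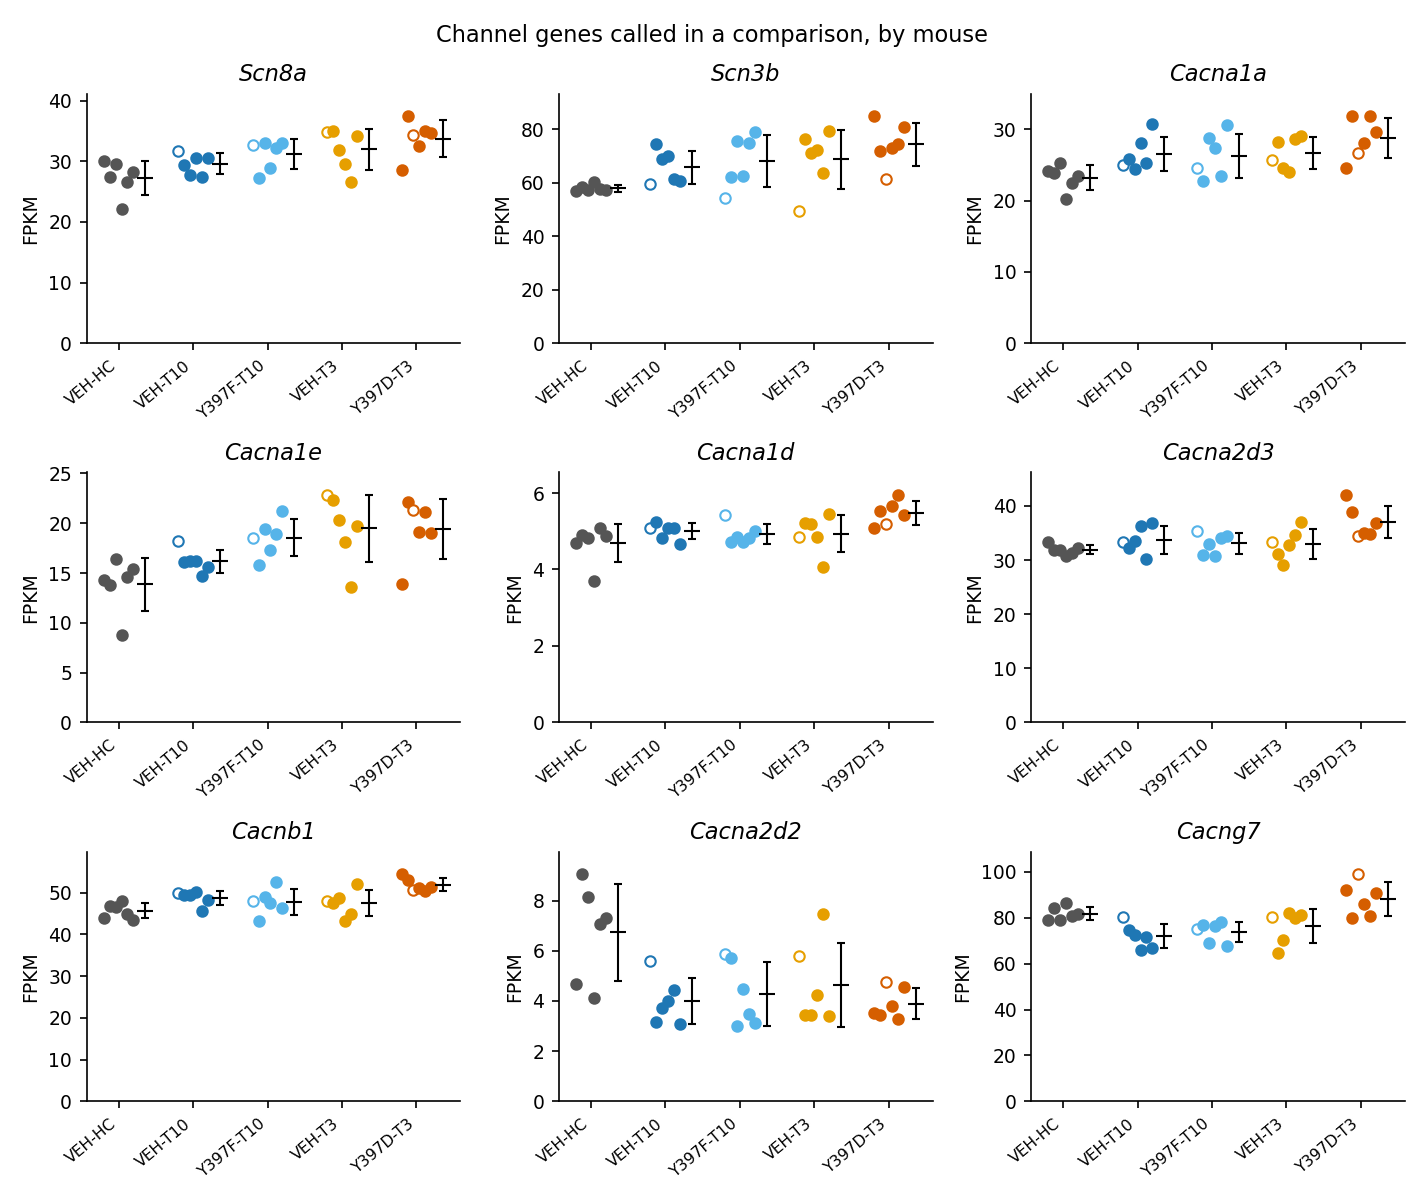
Level in FPKM of the 9 channel genes called in any comparison or across the conditions, 1 point per mouse with the mean and SD of each condition (n = 6), and open circles for the 4 libraries with low astrocyte markers. Cacnb1, Cacna2d3 and Scn3b show Y397D-T3 points wholly above the VEH-HC points, and Cacna2d2 shows VEH-HC points reaching 9.05 FPKM above most trained mice.

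Counted by separation alone, 3 of the 27 genes (Cacna2d3, Cacnb1 and Scn3b) had every Y397D-T3 mouse above every VEH-HC mouse, which held for 2.5% of all rows, and none had every mouse below, which held for 3.02%. By family, all 4 sodium channel alpha and all 3 beta genes tested had positive differences in Y397D-T3, as did both Cav1 and all 3 Cav2 genes. In contrast, Hcn2 (-0.07) and Hcn3 (-0.03) were negative there, and neither was called, and 1 of the 3 gamma genes was positive. Against the same VEH-HC mice, the positive sodium alpha, sodium beta, Cav1 and Cav2 genes numbered 3, 3, 2 and 2 in VEH-T3. They numbered 3, 2, 2 and 2 in Y397F-T10 and 1, 2, 2 and 3 in VEH-T10. Of the Cav3 genes, Cacna1h had 17.1 ± 1.05 FPKM in VEH-HC and 21.5 ± 3.61 in Y397D-T3 (0.30, adjusted p = 0.0859), with Cacna1g and Cacna1i at -0.06 and -0.03. Cacnb3, the most abundant beta gene, had 78.8 ± 4.71 and 87.4 ± 5.88 FPKM (0.15, adjusted p = 0.178).

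Most of these genes are long, and VEH-HC mouse 4, whose library read long transcripts low, was in the reference group. The median transcript of the 27 genes had 7436 bases (2212 to 14921), against 3433 over all tested rows. This mouse had the lowest level of all 30 for Cacna1e (8.81), Scn8a (22.2), Cacna1d (3.70) and Cacna1a (20.2 FPKM). The other 5 VEH-HC mice had length indices from -0.17 to 0.06 and the Y397D-T3 mice from -0.19 to 0.18. Without VEH-HC mouse 4, 7 of the 8 genes were still called in Y397D-T3, and so were 7 of 8 after a trend on length and GC content was taken out of each library. Cacna1d was the gene lost in both.

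**Figure D3:**
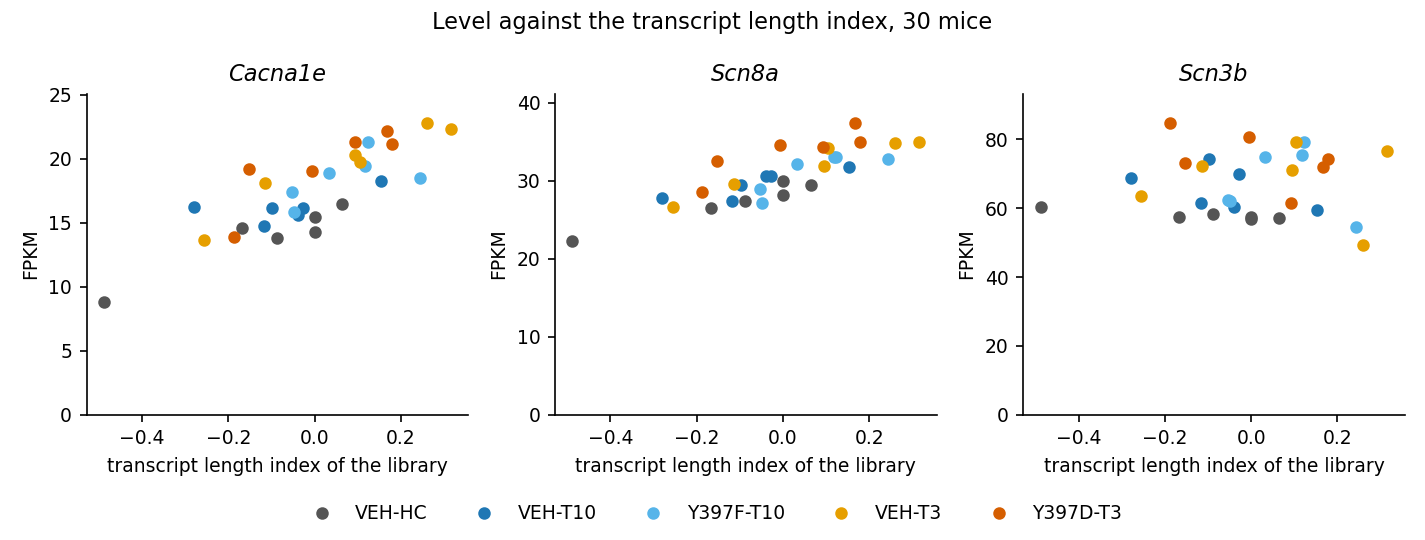
Level in FPKM of Cacna1e, Scn8a and Scn3b against the length index of each library, 1 point per mouse and coloured by condition. The index is the correlation of log2 transcript length with log2 level minus the row mean. VEH-HC mouse 4 sits at the far left, at an index of -0.49, with the lowest Cacna1e (8.81 FPKM) and Scn8a (22.2 FPKM) of all mice.

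Promoter sequence was examined for the 9 called genes. RefSeq promoters on GRCm38.p6, each from 250 bases before to 50 bases after a transcription start, were at hand for 29 of the 38 genes (40 promoters) and for 7 of the 9 called genes, Cacna1a and Scn3b having no entry. The GC box GGGCGG, searched on both strands, was present in a promoter of 5 of the 7 called genes (Cacna1d, Cacna2d2, Cacna2d3, Cacnb1 and Cacng7), of 17 of the 29 genes and of 38.2% of all 27025 genes in the table. Counted by promoter, it was in 18 of 40 and in 35.7% of 32851. The full cyclic AMP response element TGACGTCA was in 0 of 40 and in 1.79% of all. Its part TGACG, which every full element contains, was in 6 of 40 and in 20.8% of all, and in none of the called genes. The AP-1 motif TGANTCA was in 1 of 40 (Cacng5) and in 7.81% of all. Below are 30 bases around 1 GC box of each of 4 genes, 3 higher and 1 lower in Y397D-T3, with the box in capitals, read 5′ to 3′ on the strand of the gene.
Cacnb1, chr11:98022659-98022688, minus strand: ggagcgagggagGGGCGGggggagatgctg
Cacna1d, chr14:30353526-30353555, minus strand: cgggcgcggagcGGGCGGgcgggcgggcgg
Cacna2d3, chr14:29721940-29721969, minus strand: cccgcctcctctCCGCCCtcccctcccctc
Cacna2d2, chr9:107399794-107399823, plus strand: agcgacaggggaGGGCGGcgccggcaggtt
The box begins 49, 57, 93 and 74 bases before the start, in this order, and Cacna2d3 holds it in reverse. The Cacna1d window holds further copies that are not marked, among them the one that begins 49 bases before its start. In the GENCODE annotation the Cacna2d3 window lies outside any gene, the Cacnb1 and Cacna1d windows lie in introns of longer transcripts of these genes, and the Cacna2d2 window overlaps a non-coding exon part of its own gene. The box was thus present in genes of both directions.

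Training and the habituation before it, with vehicle alone, gave few calls among the channel genes. After 3 min (VEH-T3 against VEH-HC), 1 of 27 was called, higher, against 2.23% higher and 2.94% lower of all rows (5.17% in all). This was Cacna1e, with 13.6, 20.01 and 22.8 FPKM (lowest, median, highest) in VEH-T3 and a difference of 0.46 ± 0.12 (adjusted p = 0.0262). It was lost without VEH-HC mouse 4 (0.0752) or without VEH-T3 mouse 2 or 3 (0.0838 and 0.0639), and was 0.127 when only the 12 libraries compared were fitted. Next were Scn8a (0.22, adjusted p = 0.0721) and Hcn2 (-0.17, 0.0904), and 7 of 27 genes had an unadjusted p under 0.05, against 21.6% of all rows.

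The count of this comparison also moved when single mice were left out. Without VEH-T3 mouse 5, 5 channel genes were called (Cacna1e, Cacna2d2, Hcn2, Scn3a and Scn8a), against 7.91% of all rows, with Scn8a at 0.27 (adjusted p = 0.0213) and Cacna2d2 at -0.59 (0.0362). That mouse had the highest Cacng5 level of all 30 libraries, 11.0 FPKM, along with the highest summed oligodendrocyte markers (3822). Without VEH-T3 mouse 1, Cacna1e and Scn3b were called, against 9.78% of all rows.

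After 10 min of training (VEH-T10 against VEH-HC), limma called 0 of 27 channel genes, against 0.819% of all rows, and 6 had an unadjusted p under 0.05, as had 14.9% of all rows. The smallest adjusted p-values were those of Cacna2d2 (0.0933), Cacng7 (-0.18, 0.126) and Cacnb4 (-0.24, 0.176). Cacna1e, the gene called after 3 min, averaged 16.2 ± 1.15 FPKM in VEH-T10 and 19.5 ± 3.34 in VEH-T3. Set against each other, the training lengths differed by -0.24 for it (10 min minus 3 min), with a 95% interval of -0.48 to 0.01 (adjusted p = 0.630). That comparison called 0 of 27 genes in limma, against 0.0455% of all rows, with 3 at an unadjusted p under 0.05 (Cacnb3, Cacnb4 and Scn3a), as had 8.15% of all rows.

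Y397F-T10 against VEH-HC also had 0 of 27 called in limma (1.13% of all rows), with 9 genes at an unadjusted p under 0.05, against 16.9% of all rows. Cacna1e came nearest, at 15.8, 18.7 and 21.3 FPKM and a difference of 0.41 (adjusted p = 0.0852). Hcn2 was at 49.1, 52.3 and 54.9 FPKM against 54.9, 59.97 and 66.9 in VEH-HC, nearly without overlap, and its difference of -0.20 had an adjusted p of 0.102. Cacng7 was the 1 gene with every Y397F-T10 mouse below every VEH-HC mouse, as were 1.24% of all rows.

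Across the 5 conditions, the moderated F test of limma called 1 of 27 channel genes, Cacng7 (chr7:3332955-3368221, plus strand), against 2.64% of all rows. Its levels were 78.9, 81.2 and 86.6 FPKM in VEH-HC and 65.8, 72.0 and 80.5 in VEH-T10. Y397F-T10 mice had 67.5, 75.6 and 78.0 and VEH-T3 mice 64.5, 80.1 and 82.2, while the Y397D-T3 levels were 79.9, 88.6 and 99.0. Both conditions trained for 10 min thus had the lowest means and Y397D-T3 the highest, while none of the 7 pairwise comparisons called it. The adjusted p was 0.0233, and 0.0515 without Y397D-T3 mouse 6.

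Each CREST mutant was set directly against vehicle mice of the same training. Y397D-T3 against VEH-T3 had 0 of 27 genes called in limma (0.00758% of all rows) and 5 at an unadjusted p under 0.05 (7.87% of all rows), each of them higher in Y397D-T3. These were Cacng7 (0.21, 95% interval 0.08 to 0.33), Cacnb3 (0.22, 0.08 to 0.36), Cacnb1, Cacna2d3 and Cacna1d, with adjusted p-values from 0.504 to 0.611. In all, 22 of the 27 differences were positive, with a median of 0.10, against 50.9% positive and a median of 0.00 over all rows.

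For the genes called against the home cage, this direct comparison gave intervals that included 0 for some and lay above it for others. Cacna1e differed by 0.00 (-0.25 to 0.25), Scn8a by 0.08 (-0.07 to 0.22), Scn3b by 0.12 (-0.07 to 0.32) and Cacna1a by 0.10 (-0.05 to 0.25). Cacnb1 (0.13, 0.04 to 0.21), Cacna2d3 (0.16, 0.05 to 0.27) and Cacna1d (0.13, 0.01 to 0.25) had intervals above 0 before adjustment. Cacna2d2 differed by -0.17 (-0.53 to 0.20). The calls of Y397D-T3 against VEH-HC are therefore not shown to differ from what VEH-T3 mice had.

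Y397F-T10 against VEH-T10 called 0 of 27 genes and no row of the table (0%), and 0 channel genes had an unadjusted p under 0.05, against 3.78% of all rows. The widest differences were those of Cacna1e (0.18, -0.07 to 0.43) and Scn3a (0.15, -0.04 to 0.34), and 17 of 27 were positive. Intervals for Scn8a (-0.08 to 0.22) and Hcn2 (-0.19 to 0.07) show the size of change that these 6 mice per condition leave possible.

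**Figure D4:**
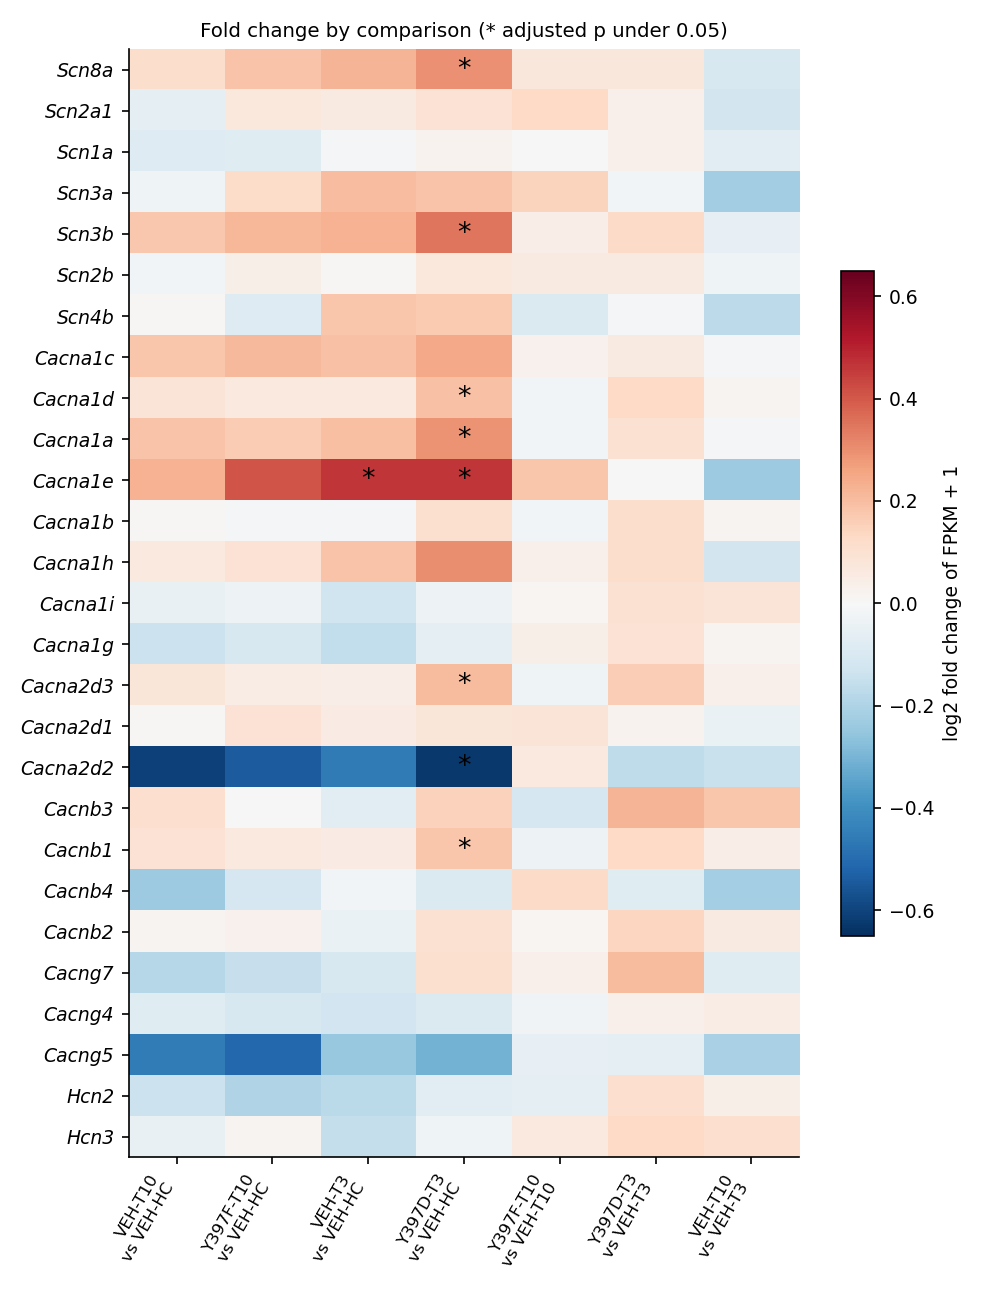
Log2 difference in FPKM + 1 of 27 tested channel genes (rows, by family) in the 7 comparisons (columns), with asterisks at an adjusted p under 0.05. The column of Y397D-T3 against VEH-HC holds 8 asterisks and that of VEH-T3 against VEH-HC holds 1, with none in the other columns.

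The 4 libraries with low astrocyte markers carried the extreme values of several channel genes. The T-type genes Cacna1i (9.33 to 11.1 FPKM in them against 5.29 to 8.81 in the other 20 trained libraries) and Cacna1g (8.29 to 10.7 against 4.602 to 7.72) and Hcn3 (3.83 to 5.12 against 2.05 to 3.65) were higher without overlap. These 3 of 27 compare with 2.75% of all rows that lay wholly higher. In contrast, Scn4b (2.75 to 4.95 against 5.04 to 8.58) and Cacng5 (1.64 to 2.76 against 3.596 to 11.0) were wholly lower, as were 3.99% of all rows.

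The same libraries had deep cortex markers at a summed 18.2 to 28.1 FPKM, against 13.5 to 19.0 in the other 20 and 19.2 to 24.1 in VEH-HC. Microglial markers were at 32.3 to 43.4 against 45.4 to 90.04. Prkcd was at 3.55 to 5.46 against 13.2 to 38.1 FPKM. The part of these markers in the levels of channel genes was not tested.

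**Figure D5:**
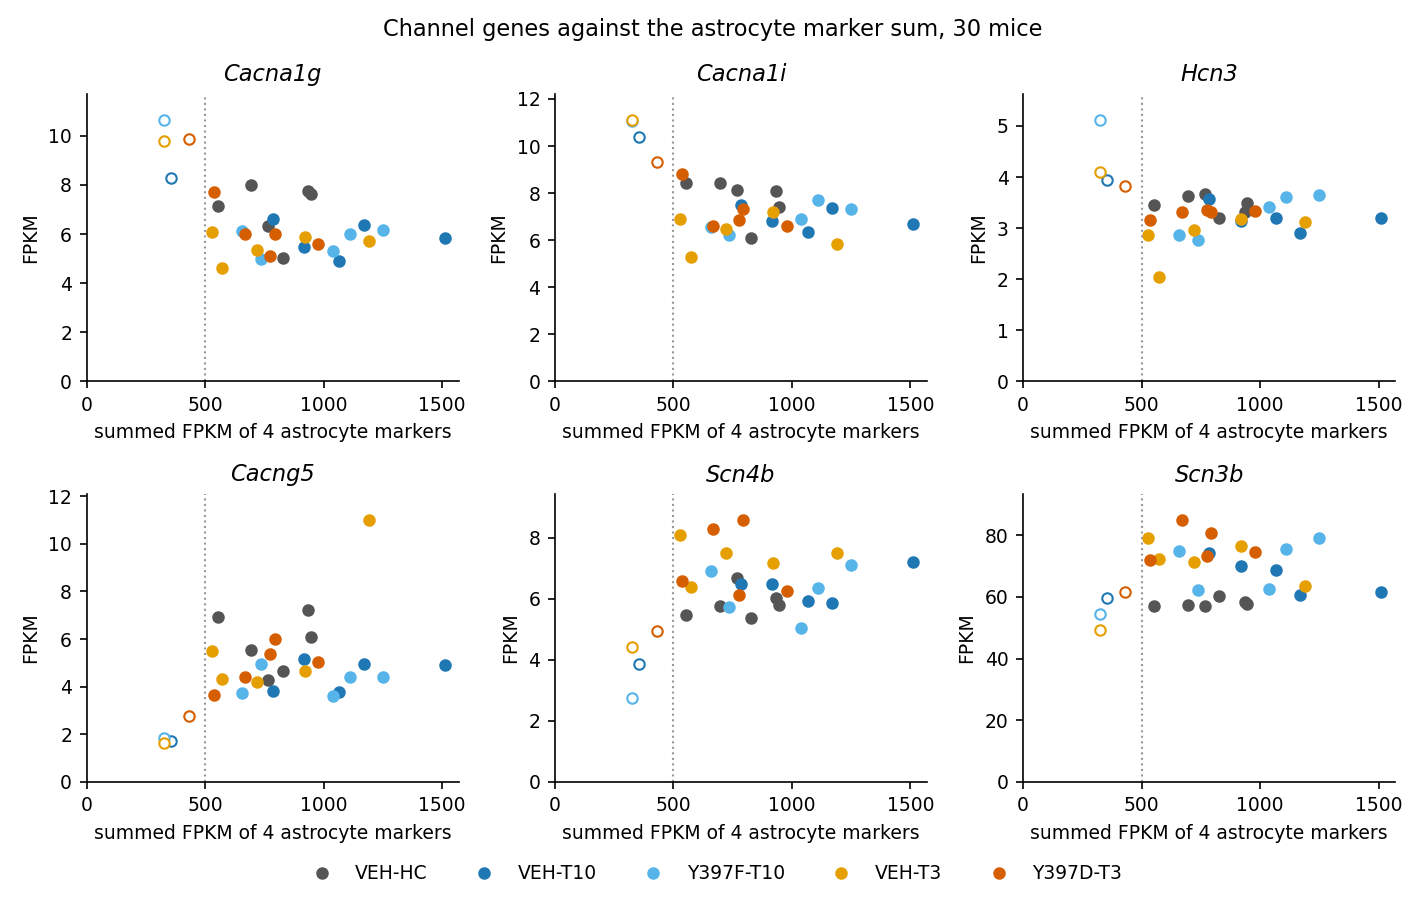
Level in FPKM of Cacna1g, Cacna1i, Hcn3, Cacng5, Scn4b and Scn3b against the summed FPKM of astrocyte markers in each library, coloured by condition, with open circles for the 4 libraries below a sum of 500 (dotted line). The open circles hold the highest trained values of the first 3 genes, such as 10.7 FPKM for Cacna1g, and the lowest of Cacng5 and Scn4b, while Scn3b overlaps slightly.

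Each comparison was therefore also made without these 4 libraries, a choice made after their values were seen. No VEH-HC mouse was removed. The same 8 genes were then called in Y397D-T3 against VEH-HC, where 5.15% of all rows were called higher and 5.58% lower. In VEH-T3, 5 of 27 were called (4.64% of all rows higher, 8.01% lower). Cacna1e (0.42, adjusted p = 0.0330), Scn3b (0.32, 0.00290) and Scn4b (0.28, 0.0297), a beta subunit tied to resurgent sodium current, were higher, and Hcn3 (-0.23, 0.0379) and Cacna1i (-0.25, 0.0422) were lower. The removed VEH-T3 mouse held the lowest Scn3b and Scn4b values and the highest Hcn3 and Cacna1i values of its condition. Its removal thus moved each of these differences towards its call, and the new calls are not separate support.

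In VEH-T10, 3 were then called, all lower (as were 4.38% of all rows), which were Cacna2d2 (-0.69, 0.0209), Cacnb4 (-0.28, 0.0121) and Cacng7 (-0.22, 0.0284). In Y397F-T10, Scn3b was higher (0.28, 0.0129) and Cacna2d2 lower (-0.63, 0.0322), against 1.82% of all rows higher and 4.95% lower. In each of these conditions the removed mouse held the extreme value that ran against each of these calls. Across the conditions 3 genes were called, Cacna2d2, Cacng7 and Scn3b (9.98% of all rows). Between trained conditions, limma called no channel gene (0.0379% of all rows in VEH-T10 against VEH-T3, and 0% in both mutant comparisons).

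Proteins that work with these channels were followed in a list of 27 genes, among them intracellular FGF homologous factors, which bind the sodium channel tail, ankyrin G and its partners at the axon initial segment, calmodulins and active zone scaffolds. They gave 26 tested rows, Rims1 being on 2. In Y397D-T3 against VEH-HC, 1 was higher and 1 lower, which is near the 3.91% and 3.16% of all rows. Rimbp2, a scaffold that ties calcium channels to release sites, had 19.8 ± 2.096 FPKM in VEH-HC and 25.6 ± 2.11 in Y397D-T3 (0.36 ± 0.10, adjusted p = 0.0235). Fgf12 had 18.1 ± 1.46 and 13.9 ± 1.52 FPKM (-0.36 ± 0.11, adjusted p = 0.0444). None of the 26 rows was called in the other 6 comparisons.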

How the data were processed

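RNA was taken from 1 dorsal hippocampus hemisphere per mouse (RIN of at least 7 per the labels), and paired-end reads were made on NovaSeq and HiSeq instruments that the sources do not assign to libraries. The authors aligned reads with TopHat2 2.1.1 to mm10 and deposited Cufflinks 2.2.1 values as FPKM, 1 column per mouse, so depth is unknown and count tests could not be used. Whether counting used strand is not given in the sources used here, and reads of antisense partners cannot be told apart.

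Rows with a mean of at least 1 FPKM were tested as log2(FPKM + 1) with limma 3.58.1 (R 4.3.3; lmFit, contrasts.fit, eBayes with trend) over all 30 libraries, with 1 coefficient per condition and no covariate. Benjamini-Hochberg adjustment ran over all 13184 rows of a comparison (threshold 0.05), and all tests were two-sided. Fold changes on this scale understate those of low genes. The 4 comparisons with VEH-HC share its 6 mice.

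Of the genes the rule found, 3 are not reported here. The channel genes, the partner list and the marker lists were chosen with earlier results of these data known. Genes named were those called, the most abundant of each family and the main neuronal forms. Others are named by their place in a range, and were chosen after their values were seen. Alternatives were a pseudocount of 0.1, no filter, centring, a replicate block, only the 12 libraries compared, removal of a length and GC trend, and leaving out each mouse. The fit was tested on simulated data with independent normal noise at each gene's own SD. In Y397D-T3 against VEH-HC it recovered 55% of 100 genes changed by 0.3 on the log2 scale. Of 100 genes changed by 0.5 it recovered 79%, with 5 false calls in the simulation. A gene not called is thus not shown to be unchanged. Real libraries shared shifts over many genes, as those set apart show, which the simulated noise leaves out. The recovery and the false calls need therefore not hold for these data. The labels do not say whether replicate numbers pair mice, and the main fit treated mice as unpaired. Correlations of deviations between same-numbered mice had both signs in every comparison. Between trained conditions they were positive for number 1 (0.12 to 0.43) and number 4 (0.39 to 0.41), and of both signs for the other numbers. Against VEH-HC, numbers 1 and 4 also had both signs. These correlations do not settle whether same-numbered mice were handled together. Coordinates are from GENCODE on GRCm38.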

Additional observations from a re-analysis of the deposited data

Results flagged for a closer look

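Within conditions of 6 mice, single mice lay far from the other 5 (Dixon's ratio of the gap to the whole range, above its 95% critical value) in 17 of 135 groups of the 27 tested genes. Chance alone sets apart about 1 group in 20.

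Most of these values came from 3 of the 4 libraries with low astrocyte markers. In VEH-T10 mouse 1, Cacna1i was at 10.4 and Scn1a at 11.3 FPKM, each high for its condition. Y397F-T10 mouse 1 was high for Cacna1b (14.3), Cacna1g (10.7), Cacna1i (11.1), Hcn3 (5.12) and Scn1a (12.5 FPKM). VEH-T3 mouse 1 was high for Cacna1g (9.80), Cacna1i (11.1), Cacnb4 (21.6) and Scn1a (13.3 FPKM). The remaining library of the 4, Y397D-T3 mouse 3, was high for Hcn3 (3.83 FPKM). These libraries also held the lowest summed astrocyte, oligodendrocyte and microglial markers of their conditions. The part of these markers in the levels was not tested.

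VEH-HC mouse 4 was low for Cacna1d (3.70), Cacna1e (8.81) and Cacnb4 (13.2 FPKM), and its library had the lowest length index. Y397D-T3 mouse 2 was high for Scn2b (74.2 FPKM), and VEH-T3 mouse 5 was low for Scn3a (3.30 FPKM).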

How the results depend on the processing

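For Y397D-T3 against VEH-HC, the count of higher channel genes ranged from 3 to 8 and of lower from 0 to 1 when single mice were left out. In VEH-T3 against VEH-HC it was 0 to 3 higher and 0 to 2 lower, and across the conditions 0 to 4. The other counts stayed at 0. With only the 12 libraries compared, 0 were higher in VEH-T3. Without the 4 libraries of low astrocyte markers, 3 were lower in VEH-T10, 3 higher and 2 lower in VEH-T3, 1 higher and 1 lower in Y397F-T10, and 3 called across the conditions. The difference of Cacna1d in VEH-T3 turned from 0.06 to -0.022 with the length and GC trend removed. The causes were not tested.

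The replicate block gave 6 higher and 1 lower channel genes in Y397D-T3 against VEH-HC (Cacna1d lost, adjusted p = 0.0543) and changed no other call among channel genes. Not every library correlated best with its own number, and the labels do not say what the numbers stand for.

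Over all rows, 108 were called in VEH-T10 (42 higher, 66 lower), 681 in VEH-T3 (294, 387), 149 in Y397F-T10 (62, 87) and 932 in Y397D-T3 (515, 417) against VEH-HC. In this order, centring gave 46 (33, 13), 341 (239, 102), 42 (30, 12) and 940 (692, 248). Removing the length and GC trend gave 147 (111, 36), 221 (184, 37), 77 (66, 11) and 1126 (901, 225). Fitting only 12 libraries gave 321 (91, 230), 0, 43 (6, 37) and 1845 (685, 1160). Without VEH-HC mouse 4, 95 rows were called in VEH-T10, 155 in VEH-T3, 18 in Y397F-T10 and 665 (368, 297) in Y397D-T3. Across the conditions 197 were called, against 348. Without the 4 libraries these were 789 (212, 577), 1668, 892 (240, 652) and 1415, and 1316 across the conditions. Comparisons between trained conditions called at most 15 rows under any of these. Depth is unknown, so low genes carry an unmeasured counting error.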
